A study of Xenopus laevis with 20 samples.

Results

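The nuclear genes of the mitochondrial respiratory chain were followed in the frog Xenopus laevis at stage 13, when the neural plate of the whole embryos measured here has just formed. Members were taken by name: every probe set whose platform gene symbol begins with nduf, sdha to sdhd, uqcr, cox4 to cox8, cyc1, cycs or atp5. The rule found 78 of 15491 gene probe sets. They measure 69 genes named by a single symbol, or 56 genes when the .L and .S copies of this allotetraploid frog are counted as 1 gene, and 5 further probe sets carry several symbols. After a filter on low values (log2 above 4 in at least 5 arrays) 74 were kept: 28 of complex I, 4 of complex II, 8 of complex III, 13 of complex IV, 19 of complex V, and 1 each for cytochrome c and an assembly factor. The 4 left out were ndufs4.S, sdhd.S, cox4i2.L and a probe set of cyc1.L. RefSeq lists 139 genes with such symbols in this species, and the mitochondrially encoded subunits, which the symbols of the rule do not cover, are not analysed here.

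The respiratory chain sits in the inner mitochondrial membrane. Complex I (NADH dehydrogenase) and complex II (succinate dehydrogenase, which is also a Krebs cycle enzyme) pass electrons to ubiquinone, complex III (the cytochrome bc1 complex) passes them on to cytochrome c, and complex IV (cytochrome c oxidase) hands them to oxygen. Complexes I, III and IV pump protons across the membrane, and complex V, the ATP synthase, lets the protons flow back through its membrane rotor while its F1 head makes ATP. In the frog, the egg supplies the embryo with mitochondria, which are partitioned among its dividing cells.

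The study asked what follows from too much or too little Xrx1 (now rax), a homeobox transcription factor of the eye field. It comprised 20 Affymetrix arrays: 10 of uninjected siblings (controls 1 to 10), 5 of embryos given synthetic Xrx1 mRNA and 5 labelled as given MoXrx1, a morpholino antisense oligonucleotide that blocks its translation. Per the labels each array held RNA pooled from 3 embryos (the design text speaks of extraction from single ones), and all injected embryos received the agent together with GFP mRNA, which served as tracer, at the 4-cell stage on the dorsal side. The doses are given as 50 pg of Xrx1 mRNA and 400 pg of GFP mRNA on the sample labels but as 50 ng and 400 ng in the design text, and the morpholino dose appears as 1 pM, 10 pg or 0.5 pmol. RNA came from whole embryos, so progeny of injected and uninjected cells were measured together. Of the embryo's own markers, a sox2.L probe set of the neural plate lay between 7.31 and 10.17, myod1.S of the muscle lineage between 8.42 and 10.15, sox17a.L of the endoderm between 7.79 and 8.96 and krt12.4.L of the epidermis between 11.43 and 13.72. These are examples. Some marker probe sets lay lower, such as another of sox2.L (6.04 to 8.27), ncam1.S (3.28 to 6.59) and krt12.2.L (3.23 to 4.45). Some lay higher, such as a krt70.S probe set (13.51 to 14.55).

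The arrays fell into 2 sets, which the labels do not name. Controls 1 to 5 and the mRNA arrays correlated with each other at 0.943 or more, and no array of them correlated above 0.961 with an array of the other set, controls 6 to 10 and the arrays labelled morpholino, whose correlations with each other went down to 0.896. These ranges overlap and do not separate the sets by themselves. The median of all probe sets lay at 5.64 to 5.77 in the first set and at 5.80 to 5.88 in the second, without overlap. A control probe set, called the tracer probe set here because of its pattern in the first set, lay at 13.12 to 14.51 in the mRNA arrays and at 3.04 to 3.32 in controls 1 to 5. In the second set its high values came from the arrays named control 6 to 9 (13.84 to 14.51) and morpholino 5 (14.82), and its low ones from control 10 (2.89) and morpholino 1 to 4 (2.80 to 2.95). It thus went against 8 of the 10 labels of the second set, and the direction of comparisons within that set is unsettled. Comparisons of that set with the first also rest on labels that are in doubt. The manipulated gene itself was measured by 3 probe sets. A rax.S probe set lay at 6.28, 7.65, 7.14, 5.53 and 6.15 in mRNA arrays 1 to 5 against 4.93, 5.14, 5.68, 4.72 and 5.07 in controls 1 to 5, and a separate rax.S probe set at 3.04, 3.48, 4.42, 2.91 and 3.86 against 4.32, 5.87, 6.03, 4.15 and 4.2. The rax.L probe set lay at 3.09 to 5.23 against 6.68 to 8.38. On average the first rax.S probe set was thus higher in the mRNA arrays and both other probe sets were lower. In the second set rax.L lay at 3.73 to 5.38 in controls 6 to 9 and morpholino 5, whose tracer signal was high. It lay at 6.45 to 7.21 in control 10 and morpholino 1 to 4, without overlap. The rax.S probe sets overlapped in that split, at 3.00 to 3.23 against 3.20 to 4.97 and at 3.19 to 3.44 against 3.31 to 4.79.

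Over the 74 kept members, the mean deviation from each member's own 20-array mean separated the 2 sets of arrays, though control 2 and morpholino 4 lay close together. It was -0.27, -0.02, -0.04, -0.22 and -0.16 on the log2 scale in controls 1 to 5. In the mRNA arrays it was -0.31, -0.49, -0.21, -0.40 and -0.56. It was 0.45, 0.18, 0.41, 0.41 and 0.21 in controls 6 to 10. In the arrays labelled morpholino 1 to 5 it was 0.09, 0.44, 0.44, -0.01 and 0.05. Every mRNA array lay below zero and every array of the second set but morpholino 4 above it, while the mRNA arrays and their controls overlapped. The same mean over all kept probe sets stayed between -0.07 and 0.06, but it too separated the sets. It lay at -0.07 to -0.02 in the first set and at 0.02 to 0.06 in the second.

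**Figure D1:**
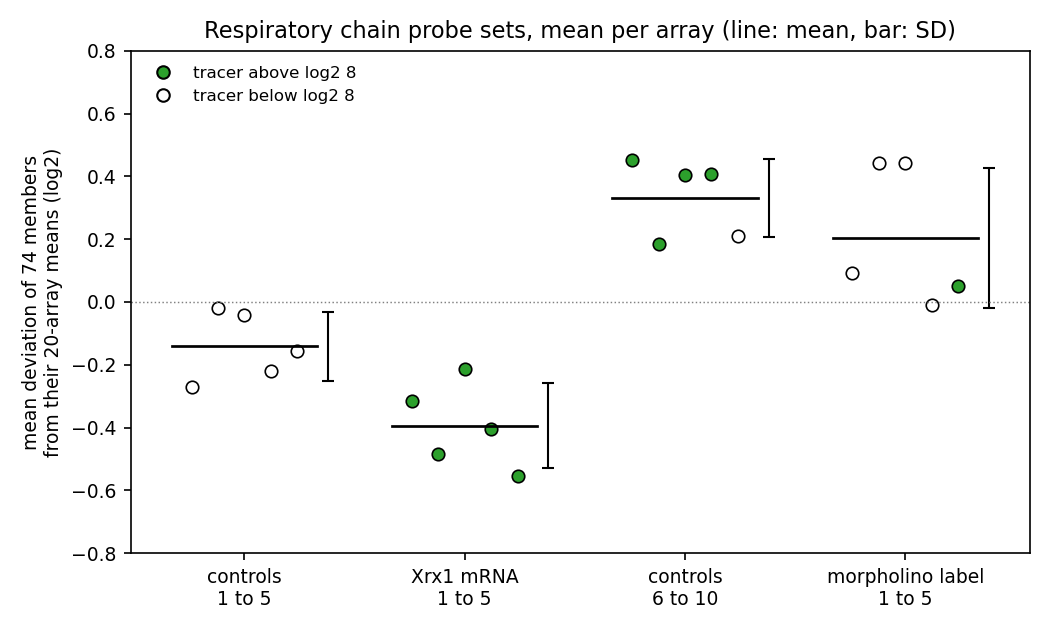
Mean log2 deviation of the 74 kept respiratory chain probe sets from their 20-array means (vertical axis) for each array, by group. Points are arrays, filled where the tracer probe set was above log2 8; lines are group means and bars are SD (n = 5). Controls 1 to 5 lay between -0.27 and -0.02 and mRNA arrays between -0.56 and -0.21; controls 6 to 10 lay between 0.18 and 0.45.

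Complex V showed the widest spread of the complexes over the arrays. Its 19 probe sets averaged -0.41 to -0.04 in controls 1 to 5, -1.0 to -0.36 in the mRNA arrays, 0.25 to 0.68 in controls 6 to 10 and 0.13 to 0.78 in those labelled morpholino. Complex I averaged -0.25 to 0.09, -0.44 to -0.07, 0.14 to 0.39 and -0.13 to 0.48 in the same order. The heat map by array shows that most rows share the change between the sets, and that some do not.

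**Figure D2:**
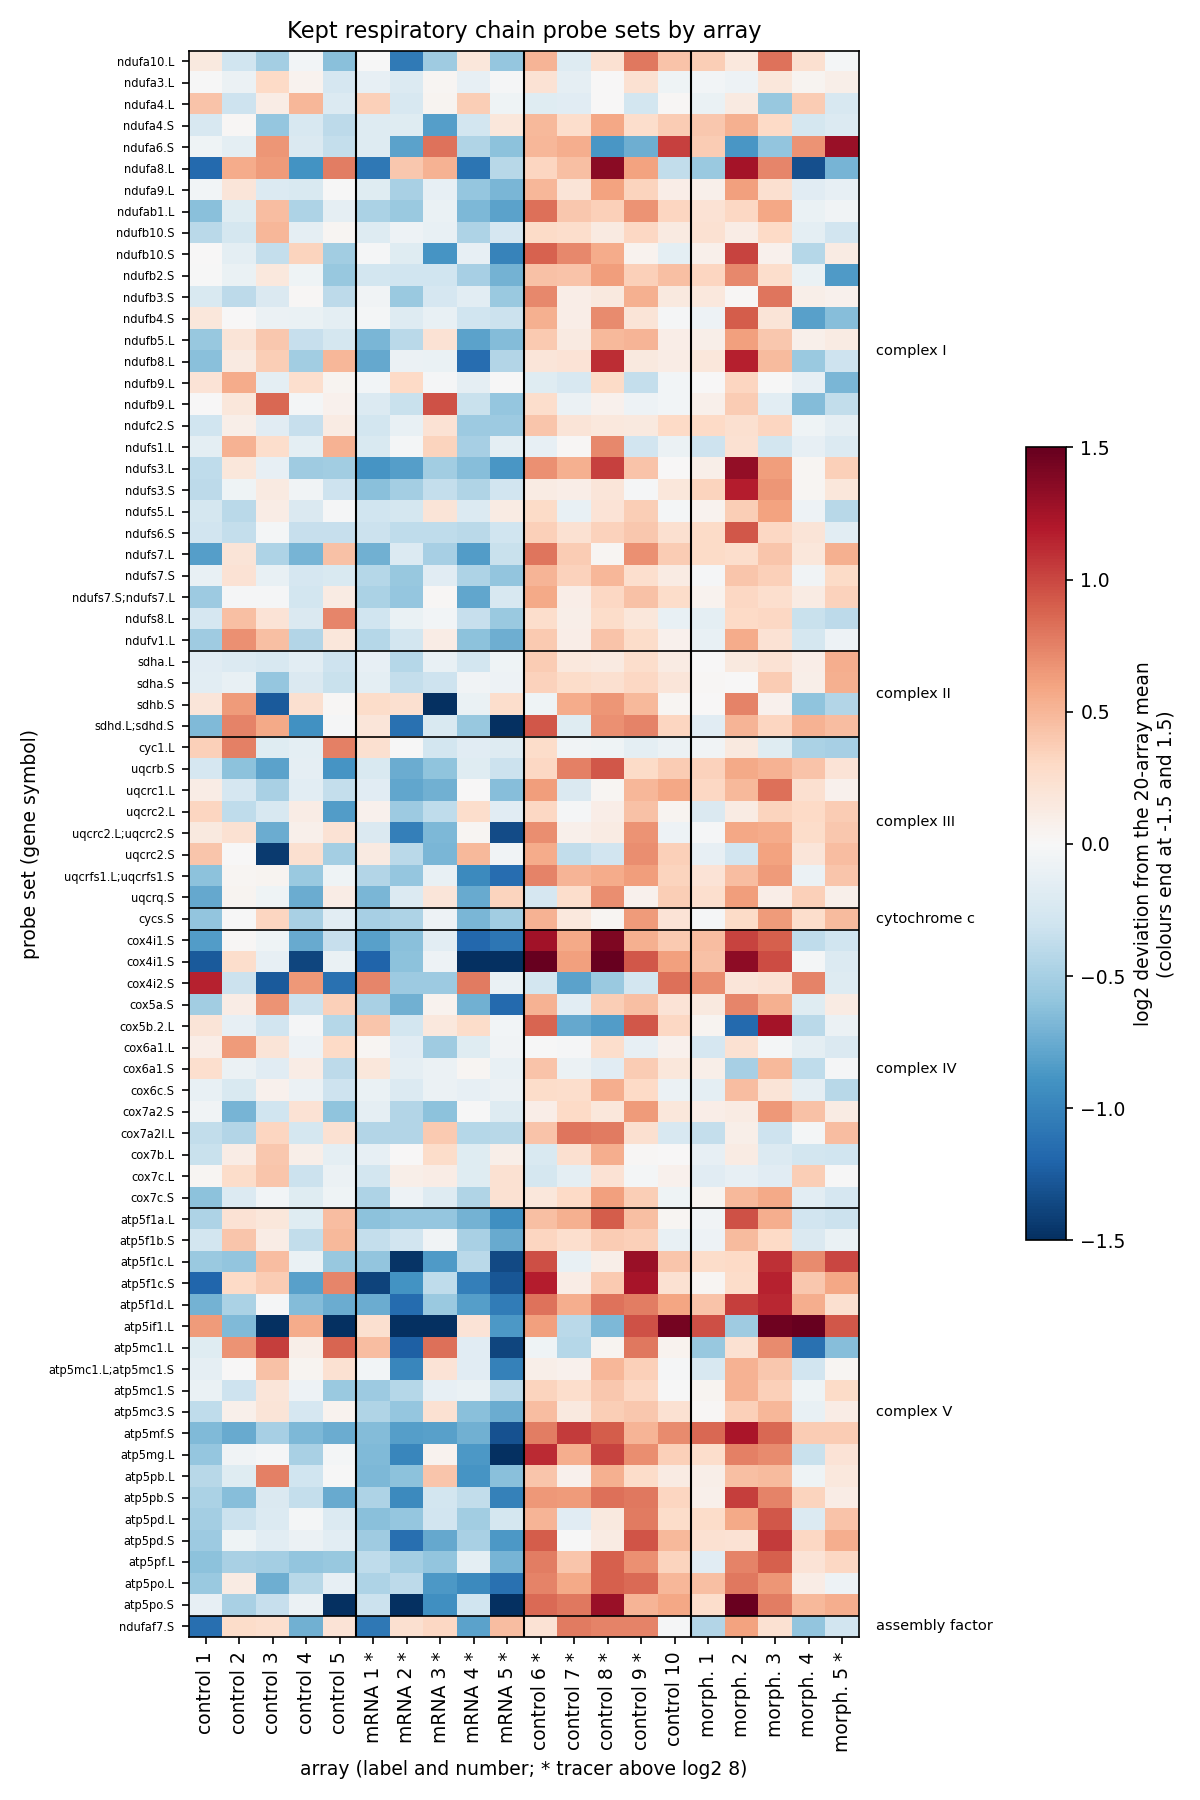
Log2 deviation of each kept member (rows, grouped by complex) from its own mean over 20 arrays, for each array (columns; an asterisk marks the tracer probe set above log2 8). Colours end at -1.5 and 1.5. Most rows are lower on average in the 10 arrays on the left than in the 10 on the right, but not in every array. Complex I averaged 0.05 and 0.09 in controls 2 and 3 and -0.13 and -0.09 in morpholino 4 and 5. The rows of cox4i2.S, ndufa8.L and atp5if1.L instead differ within the groups.

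Xrx1 mRNA against controls 1 to 5 asks what excess Xrx1 does, and it is the comparison whose labels the tracer bears out. The controls were uninjected and no group received GFP mRNA alone. Excess Xrx1 thus cannot be told apart from the injection itself and the GFP mRNA. No member was called, that is, passed an adjusted p of 0.05 in limma over all 10435 kept probe sets, against 0% of those probe sets in either direction. Members nevertheless sat lower than probe sets at large. Their median log2 difference was -0.26, against 0.03 for all kept probe sets, and 58 of 74 were lower by any amount, 78.4% against a background of 43.8%. A lean to the lower side was not particular to the members. Of cytosolic ribosomal proteins 72 of 88 were lower, of mitochondrial antioxidants 11 of 15, of beta-oxidation 9 of 12 and of carriers, porins and import proteins 27 of 38. Fewer were lower among assembly factors outside the symbol rule (11 of 21) and regulators of mitochondrial genes (8 of 21). At an unadjusted p under 0.05, 17 members were lower (23% against 4.28%) and 0 higher (against 3.15%). The medians differed over the complexes: the median was -0.43 in complex V with 18 of 19 lower, -0.28 in complex I with 26 of 28 lower, -0.10 in complex II, -0.09 in complex III and -0.01 in complex IV with 7 of 13 lower. Fewer cells rich in mitochondria, less of each transcript per cell and a difference in RNA integrity (given below) cannot be told apart in whole embryos.

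The member with the smallest p in complex V was atp5f1a.L, the alpha subunit of the F1 head. Its log2 values were 9.82, 10.49, 10.45, 10.10 and 10.75 in controls 1 to 5. They were 9.67, 9.70, 9.70, 9.58 and 9.36 in the mRNA arrays. All mRNA arrays lay below all controls, the only member to do so (1 of 74, 1.35%, against 0.412% of all probe sets). The difference was -0.72 ± 0.23 (SE) with a limma adjusted p of 0.566. The gamma subunit, the shaft that turns inside the head, had the lowest value of all members with its copy atp5f1c.S, at -0.88, and its other copy atp5f1c.L was at -0.67. In atp5f1c.S the controls read 7.23, 8.72, 8.80, 7.62 and 9.16 and the mRNA arrays 7.03, 7.52, 8.05, 7.41 and 7.14. Controls 1 and 4 were the low ones of their group, and each mRNA array was below the control of its number. Other parts of the synthase lay on the same side without a call: atp5mc1.L, a subunit of the membrane rotor ring, at -0.79, atp5mg.L of the membrane part at -0.60 and atp5pd.S of the peripheral stalk at -0.55. The exception was atp5pf.L, coupling factor 6 of the stalk, at 0.09.

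In complex I the smallest p belonged to ndufs7.S, a core subunit that carries an iron-sulfur cluster. It read 7.10, 7.44, 7.10, 6.97 and 6.98 in controls 1 to 5 and 6.79, 6.64, 7.05, 6.75 and 6.63 in the mRNA arrays. Only mRNA array 3 lay within the range of the controls. The difference was -0.35 ± 0.13 (limma adjusted p = 0.587). The core subunits ndufs3.L (-0.47), ndufv1.L (-0.45), which binds NADH, ndufs8.L (-0.45) and ndufs1.L (-0.32) were all lower without a call, and the members above zero were ndufs5.L at 0.06 and ndufa4.S at 0.03. Of these ndufs3.L lay near the filter of log2 4, at 4.21 to 4.92 in controls 1 to 5 and 3.86 to 4.23 in the mRNA arrays.

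The remaining complexes gave smaller or mixed values. In complex IV, cox6a1.L, a small subunit, read 9.84, 10.37, 9.93, 9.66 and 10.03 in controls 1 to 5 and 9.76, 9.57, 9.20, 9.55 and 9.67 in the mRNA arrays. Only mRNA arrays 1 and 5 exceeded the lowest control. Its difference was -0.41 ± 0.14 (limma adjusted p = 0.566), while the copy cox6a1.S was at 0.03. The subunit cox5a.S was at -0.67. In complex III, 4 of 8 were lower and 4 higher. There cyc1.L, the cytochrome c1 that hands electrons to cytochrome c, was at -0.39 ± 0.19 (limma adjusted p = 0.671). A complex III probe set with several symbols was at -0.63, but the single-symbol probe sets of the same gene, uqcrc2.L and uqcrc2.S, were at 0.05 and 0.15. The others above zero were uqcrb.S at 0.12 and uqcrq.S at 0.06. In complex II the flavoprotein copies sdha.L and sdha.S were at 0.02 and 0.09, sdhb.S at -0.22 and a probe set with several symbols at -0.72. Cytochrome c itself, cycs.S, read 10.87, 11.45, 11.78, 10.97 and 11.30 in controls 1 to 5 and between 10.77 and 11.38 in the mRNA arrays, a difference of -0.26 ± 0.18 (limma adjusted p = 0.806) with overlapping groups. The assembly factor ndufaf7.S, a methyltransferase of complex I assembly in mammals, was at 0.05 ± 0.34 (limma adjusted p = 0.999).

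mRNA arrays and controls of the same number deviated together, so the difference was also taken within numbers. The labels state no pairing, and correlations with controls of other numbers are not given here, so the pairing is an assumption. Members were lower in 5 of 5 pairs in 17 cases (23% against a background of 5.63%) and higher in 5 of 5 in 0 (against 7.89%). With the number as a replicate block, 30 members had an unadjusted p under 0.05 on the lower side (40.5% against 6.54%) and 0 on the higher side (against 8.11%). No member was called there either; the smallest adjusted p was 0.268, for atp5f1a.L and for atp5pb.L, a stalk subunit at -0.45 ± 0.10, while 0.0671% of all probe sets were called lower and 0% higher. The unadjusted counts rested in part on single arrays: 17 became 6 without mRNA 5, 8 without control 2, 9 without mRNA 2, 10 without control 5 or mRNA 4 and 26 without mRNA 3, and the blocked 30 became 11 without number 2, 14 without number 5 and 19 without number 4. Shares of all probe sets at this p were not counted in these refits, so no background stands beside these numbers.

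A measure of RNA integrity moved in part with this result. The 3′ minus 5′ difference of the actin and Gapd control probe sets, which rises when transcripts are shortened at the 5′ end, was 3.00, 0.32, 1.29, 2.96 and 0.63 in controls 1 to 5. It was 2.50, 2.24, 1.80, 2.94 and 3.92 in the mRNA arrays. Controls 2, 3 and 5 lay below every mRNA array, and the highest value, in mRNA 5, belongs to the array with the lowest member mean. The order was not the same throughout. Controls 1 and 4 lay above mRNA 1 to 4 in this difference, yet their member means (-0.27 and -0.22) were above those of mRNA 1, 2, 4 and 5. With this difference as a covariate, a choice made after the data were seen, the median over members was -0.13 and 1 member had an unadjusted p under 0.05 (against 2.85% of all probe sets in that fit). Against all 10 controls by label the median was -0.49.

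**Figure D3:**
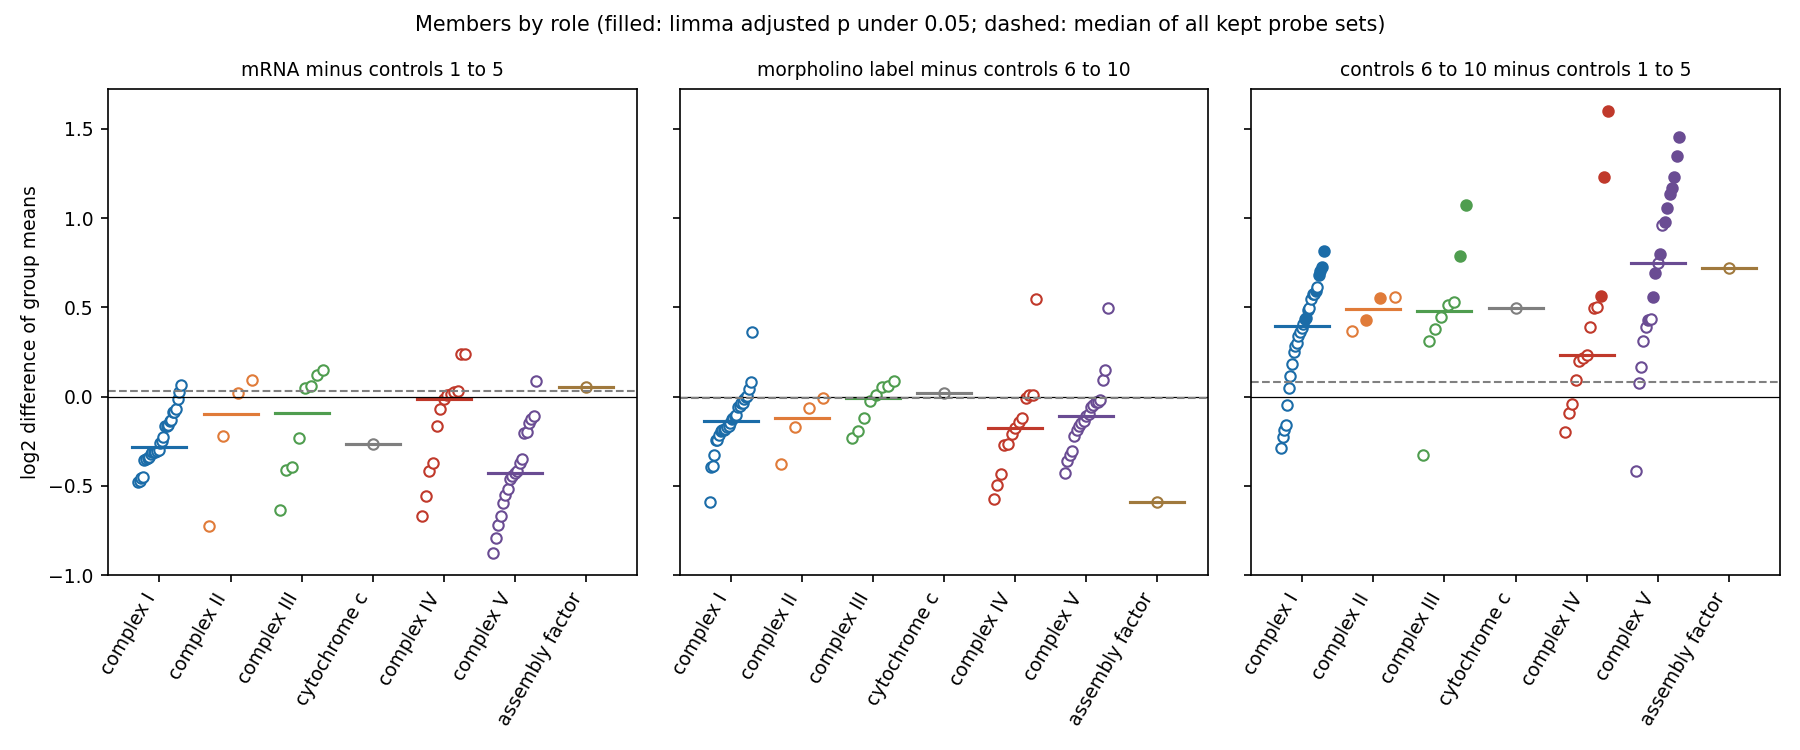
Log2 difference of group means for each kept member (points), by complex, in the 3 comparisons; filled points have a limma adjusted p under 0.05, coloured lines are medians of a complex and the dashed line is the median of all kept probe sets. No point is filled on the left or in the middle; on the right 26 are filled, all above zero, of which 11 belong to complex V.

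The arrays labelled morpholino against controls 6 to 10 ask about loss of Xrx1. By their labels, too, the agent cannot be told apart from the injection and the GFP mRNA. No member was called, against 0% of all probe sets in either direction, and by limma's unadjusted p under 0.05 there was 1 higher member (1.35% against 2.19%) and 0 lower ones (against 2.14%). The median was -0.12, against -0.01 for all kept probe sets, and 59 of 74 members were lower by any amount (79.7% against 51.7%). This was not particular to the members. Of cytosolic ribosomal proteins 70 of 88 were lower, of the Krebs cycle list 18 of 25 and of beta-oxidation 11 of 12. Fewer were lower among assembly factors outside the symbol rule (12 of 21) and muscle markers (2 of 14). By tracer state instead of label 55 of 74 members were higher in the tracer-high arrays (74.3% against 50.5%), so the direction turns with the grouping. The 1 member higher by limma's unadjusted p under 0.05 was ndufs3.S, a core subunit of complex I. It read 4.61, 4.60, 4.67, 4.48 and 4.67 in controls 6 to 10 and 4.83, 5.67, 5.15, 4.52 and 4.66 in the arrays labelled morpholino 1 to 5. The arrays labelled morpholino 2 and 3 stood out, the groups overlapped, and the difference was 0.36 ± 0.17 (limma adjusted p = 0.997) and 0.19 without morpholino 2. Among probe sets with 1 symbol, those with the smallest p in the other complexes were cox7a2l.L at -0.43 ± 0.23, atp5po.L, a stalk subunit, at -0.33 ± 0.19, sdhb.S, the iron-sulfur subunit of complex II, at -0.38 ± 0.40 and cyc1.L at -0.20 ± 0.19, each with a limma adjusted p of 0.997. Cytochrome c was at 0.02 ± 0.18 and ndufaf7.S at -0.59 ± 0.34.

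The comparisons of mRNA and of the morpholino label share no arrays. Of the members 47 were lower in both by label, which is 81.0% of the 58 lower in the first and 79.7% of the 59 lower in the second. For all kept probe sets the corresponding 2557 made up 56.0% of 4569 and 47.4% of 5398. Of all 74 members 79.7% were lower in the second comparison and 78.4% in the first, against 51.7% and 43.8% of all kept probe sets. Members lower in 1 comparison were thus lower in the other about as often as members at large. No member was called for the difference between the 2 injections (limma; 0% of all probe sets in either direction; 1 member, ndufs3.S, at an unadjusted p under 0.05 on the higher side against 1.9%, and 0 on the lower side against 2.42%), whose median over members was 0.13. When the second set was split by tracer signal instead of label, 43 of the 58 members lower in the mRNA arrays were higher in the tracer-high arrays and 15 were lower. Of all 74 members 55 were higher there and 19 lower.

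That split, between 5 tracer-high arrays (controls 6 to 9 and morpholino 5) and 5 tracer-low ones, called 1 member higher (1.35% against 1.29% of all probe sets) and 0 lower (against 1.65%). It was cox7a2l.L, a relative of a complex IV subunit that in mouse helps to join complexes III and IV. It read 6.33, 6.70, 6.68, 6.14 and 6.36 in the tracer-high arrays. It read 5.66, 5.55, 5.99, 5.59 and 5.87 in control 10 and morpholino 1 to 4. All tracer-high arrays lay above all tracer-low ones, by 0.71 ± 0.19 (limma adjusted p = 0.0441). The share of all probe sets without overlap in this split was not counted. With 1 call at about the share of all probe sets, it is no result about the members as a group. In the first set the same gene read 5.46, 5.46, 6.30, 5.48 and 5.48 in the tracer-high mRNA arrays and 5.54, 5.47, 6.23, 5.64 and 6.13 in the tracer-low controls, a difference of -0.17 ± 0.23 without a call. There the arrays numbered 3 were high in both groups. The median over all members in the split by tracer was 0.08, against 0.00 for all kept probe sets. The 14 kept muscle marker probe sets moved with the tracer in these arrays, 13 of 14 lower with a median of -1.06 and 3 called. Of 33 on the ionocyte and multiciliated cell list 22 were higher and 11 lower, with a median of 0.23 and 1 called. The part of either list in the cox7a2l.L values was not tested.

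**Figure D4:**
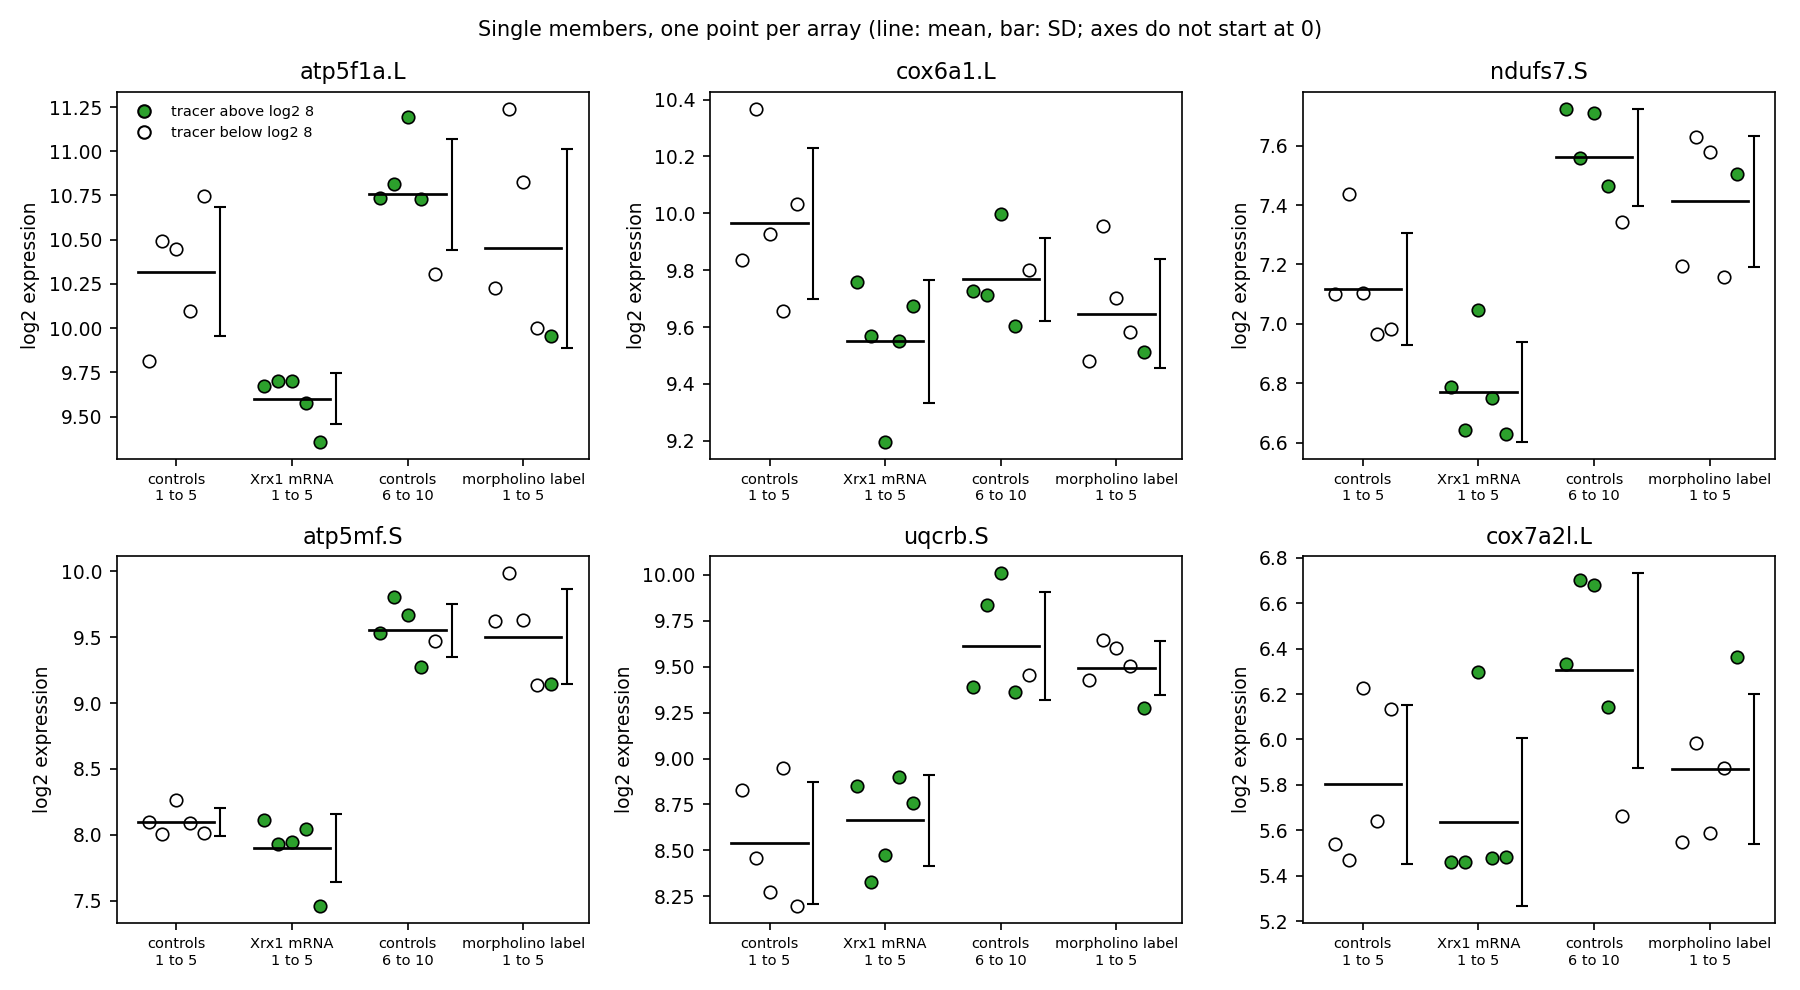
Log2 expression of 6 members in each array (points, filled where the tracer probe set was above log2 8), with group means (lines) and SD (bars, n = 5); axes do not start at zero. atp5f1a.L was below every control of its set in all mRNA arrays; atp5mf.S and uqcrb.S separated the 2 sets; in cox7a2l.L tracer-high and tracer-low arrays were separate in the second set and overlapped in the first.

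Of the 3 comparisons by label, only that between the 2 sets of controls called any member. It shares controls 1 to 5 with the mRNA comparison and controls 6 to 10 with that of the morpholino label. Controls 6 to 10 against controls 1 to 5 called 26 of 74 members higher, 35.1% against a background of 14.9%, and 0 lower, against 8.53% (at an unadjusted p under 0.05 also 0 lower, against 13.4%). The median over members was 0.44, against 0.08 for all kept probe sets, and 64 of 74 were higher by any amount (86.5% against 57.6%). In 19 members (25.7% against 10.8%) all 5 arrays labelled control 6 to 10 lay above all 5 of controls 1 to 5. Set and group cannot be told apart here, and 4 of the 5 arrays on the higher side carried the tracer signal. With each array centred on its median, 20 members were called higher and 0 lower, while the calls over all probe sets went from 1556 higher and 890 lower to 1165 and 1171.

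Complex V held the most calls, 11 of 19, with a median of 0.75. The smallest adjusted p of all members was that of atp5mf.S, subunit f of the membrane part. It read 8.10, 8.01, 8.27, 8.09 and 8.01 in controls 1 to 5 and 8.11, 7.93, 7.95, 8.05 and 7.46 in the mRNA arrays. In the second set it read 9.53, 9.81, 9.67, 9.27 and 9.47 in controls 6 to 10 and 9.63, 9.99, 9.63, 9.14 and 9.14 in the arrays labelled morpholino. The 10 arrays of the second set all lay above the 10 of the first, and the controls differed by 1.45 ± 0.16 (limma adjusted p = 4.08e-06). Next were atp5f1d.L, of the central stalk, at 1.23 ± 0.18 (limma adjusted p = 8.01e-05, given in brackets alone from here on) and atp5pf.L at 1.17 ± 0.17 (8.75e-05). In atp5pf.L controls 1 to 5 spanned only 6.45 to 6.58, and controls 6 to 10 7.40 to 7.96. Both copies of the peripheral stalk subunit OSCP were called, atp5po.L at 1.05 and atp5po.S at 1.35, and so were both of atp5pd, at 0.56 and 0.69.

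Complex III had 2 calls in 8. In uqcrb.S, a small subunit near the ubiquinone site, controls 1 to 5 read 8.83, 8.46, 8.27, 8.95 and 8.20 and controls 6 to 10 read 9.39, 9.83, 10.01, 9.36 and 9.46. The groups did not overlap and differed by 1.07 ± 0.17 (limma adjusted p = 0.000203). Complex IV had 3 calls in 13, all in 2 genes. Both probe sets of cox4i1.S, the regulatory subunit that cox4i2 replaces in some tissues of mammals, were called, at 1.23 ± 0.29 (0.00505) and 1.60 ± 0.39 (0.00602), and cox7a2.S at 0.57 ± 0.18 (0.0266). The groups did not overlap in cox4i1.S: the first probe set lay between 5.45 and 6.32 in controls 1 to 5 and between 6.69 and 7.70 in controls 6 to 10, and the other between 4.69 and 6.33 and between 6.68 and 7.75.

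Complex II had 2 calls in 4, the copies of its flavoprotein. sdha.S read 5.12, 5.17, 4.70, 5.06 and 4.95 in controls 1 to 5 and 5.62, 5.56, 5.52, 5.59 and 5.46 in controls 6 to 10, without overlap, and differed by 0.55 ± 0.13 (limma adjusted p = 0.00392); sdha.L differed by 0.43 ± 0.11 (0.0104). Complex I had 8 calls in 28 and a median of 0.39. Its smallest adjusted p values, beside that of ndufs6.S, were those of ndufa4.S at 0.68 ± 0.18 (0.0105) and ndufab1.L, the mitochondrial acyl carrier protein, at 0.71 ± 0.19 (0.0116). ndufs6.S, a zinc-binding accessory subunit, was at 0.59 ± 0.15 (0.00673), but it exceeded log2 4 in 10 arrays, of which control 3 was the only one of the first set. It passed the filter through the side where it was high and had to differ, so its call is a description. With a mean log2 above 6 as the filter, 21 of 64 members were called higher, against 10.8% of all probe sets in that fit. Cytochrome c, cycs.S, was just short of a call at 0.49 ± 0.18 (0.0510), and ndufaf7.S was at 0.72 ± 0.34 (0.131).

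The difference between the sets was present at either tracer state. Among tracer-low arrays 22 members were called higher (29.7% against 12.1%) and 0 lower (against 6.64%), with a median of 0.34. Among tracer-high arrays 46 were called higher (62.2% against 21.9%) and 0 lower (against 15%), with a median of 0.63, and of complex V 17 of 19 with a median of 1.09. Cytosolic ribosomal proteins were called higher at a like share there, 54 of 88 (61.4%). The tracer-high arrays of the first set are the Xrx1 mRNA ones, so agent and set cannot be told apart in that comparison. The tracer-low arrays of the second set are control 10 and morpholino 1 to 4. If their labels hold, injection and set cannot be told apart among tracer-low arrays either. Their 3′ minus 5′ difference was 1.80 to 3.92, against 0.39 to 1.44 in the tracer-high arrays of the second set. Without the 8 arrays in question control 10 alone stood for the second control group, with its spread assumed to be that of the other groups. That fit called 1 member with a median of 0.30 and is no check of the result. These comparisons share arrays with those above and are not independent of them. Marker lists named after other cells were also compared between the control sets. Of 33 probe sets on the ionocyte and multiciliated cell list 9 were called higher (27.3% against the background of 14.9%) and 0 lower (against 8.53%). The median was 0.27, with list means of -0.42 to -0.05 in controls 1 to 5 and 0.09 to 0.48 in controls 6 to 10. By symbol this list includes subunits of the V-type proton pump, such as atp6v0d1.L and atp6v1c1.L, so it does not measure these cells alone. Muscle markers had a median of -0.44 with 0 of 14 called and list means of -0.53 to 0.80 and -0.79 to 0.16, and blood and endothelial markers a median of 0.00 with 0 of 6 called. Their part in the members' values was not tested. The 3′ minus 5′ difference was 0.39, 1.44, 0.76, 0.85 and 1.38 in controls 6 to 10, and 23 members were called higher with it as a covariate, against 13.9% of all probe sets in that fit.

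Of the homeologs, 13 genes had both copies measured singly, and both copies passed the filter in 12. Between the control sets 8 pairs were higher in both copies, both copies were called in 4 pairs, 1 copy in 5 and neither in 3. No pair was called in opposite directions. Shares over all pairs of copies on the array were not counted, here or for the mRNA comparison below. No background thus stands beside these pair counts. The copies of ndufa4, first described in complex I and later assigned to complex IV in mammals, lay on either side of zero. ndufa4.S read 8.12, 8.38, 7.79, 8.12 and 7.96 in controls 1 to 5 and 8.85, 8.63, 8.95, 8.63 and 8.74 in controls 6 to 10, without overlap. ndufa4.L read 10.52, 9.78, 10.21, 10.59 and 9.88 and then 9.91, 9.92, 10.09, 9.81 and 10.10, with overlap and a difference of -0.23 (limma adjusted p = 0.401). In the same way atp5mc1.S was called at 0.43 (0.0442) while atp5mc1.L was at -0.42 (0.484). In the mRNA comparison 9 of 12 pairs lay on 1 side, 7 of them with both copies lower. In cox4i2 the .L probe set stayed between 2.06 and 2.76, below log2 4 in all arrays, and the .S probe set lay between 7.19 and 9.60.

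A few members varied more within groups than between them. cox4i2.S read 9.60, 8.12, 7.19, 9.10 and 7.33 in controls 1 to 5 and 9.18, 7.90, 7.90, 9.23 and 8.34 in the mRNA arrays. Arrays 1 and 4 were the highest of both groups. atp5if1.L, the inhibitor that stops the synthase from running backwards, followed the same numbers, with 8.40, 7.10, 5.96, 8.32 and 6.14 in controls and 8.0, 6.25, 6.24, 7.96 and 6.90 in mRNA arrays. ndufa8.L, an accessory subunit of complex I, did the reverse: 6.67, 8.39, 8.47, 6.94 and 8.60 in controls and 6.76, 8.23, 8.35, 6.73 and 7.42 in mRNA arrays. Here arrays 1 and 4 were the lowest, and they were also those of controls 1 to 5 with the highest 3′ minus 5′ difference. sdhb.S was low in the arrays numbered 3, at 9.07 in the control and 8.38 in the mRNA array against 10.23 or more in the others of both groups. Between the tracer-low arrays of the 2 sets atp5if1.L was nevertheless called, at 1.56 ± 0.54 (limma adjusted p = 0.0482).

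Other gene groups of energy metabolism and of the mitochondrion are set beside the members by their counts and medians. In the mRNA comparison 0 probe sets of any list were called, and the medians were -0.15 for 39 mitochondrial ribosomal probe sets, -0.06 for 25 of the Krebs cycle and pyruvate dehydrogenase, -0.13 for 12 of fatty acid beta-oxidation, -0.15 for 15 mitochondrial antioxidants, -0.04 for 21 of glycolysis and -0.09 for 38 carriers, porins and import proteins. The 21 assembly factors outside the symbol rule were at -0.01 and the 21 regulators of mitochondrial genes at 0.04. Cytosolic ribosomal proteins, also made in large amounts, had a median of -0.15 with 72 of 88 lower. The corresponding member median was -0.26, with 58 of 74 lower.

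**Figure D5:**
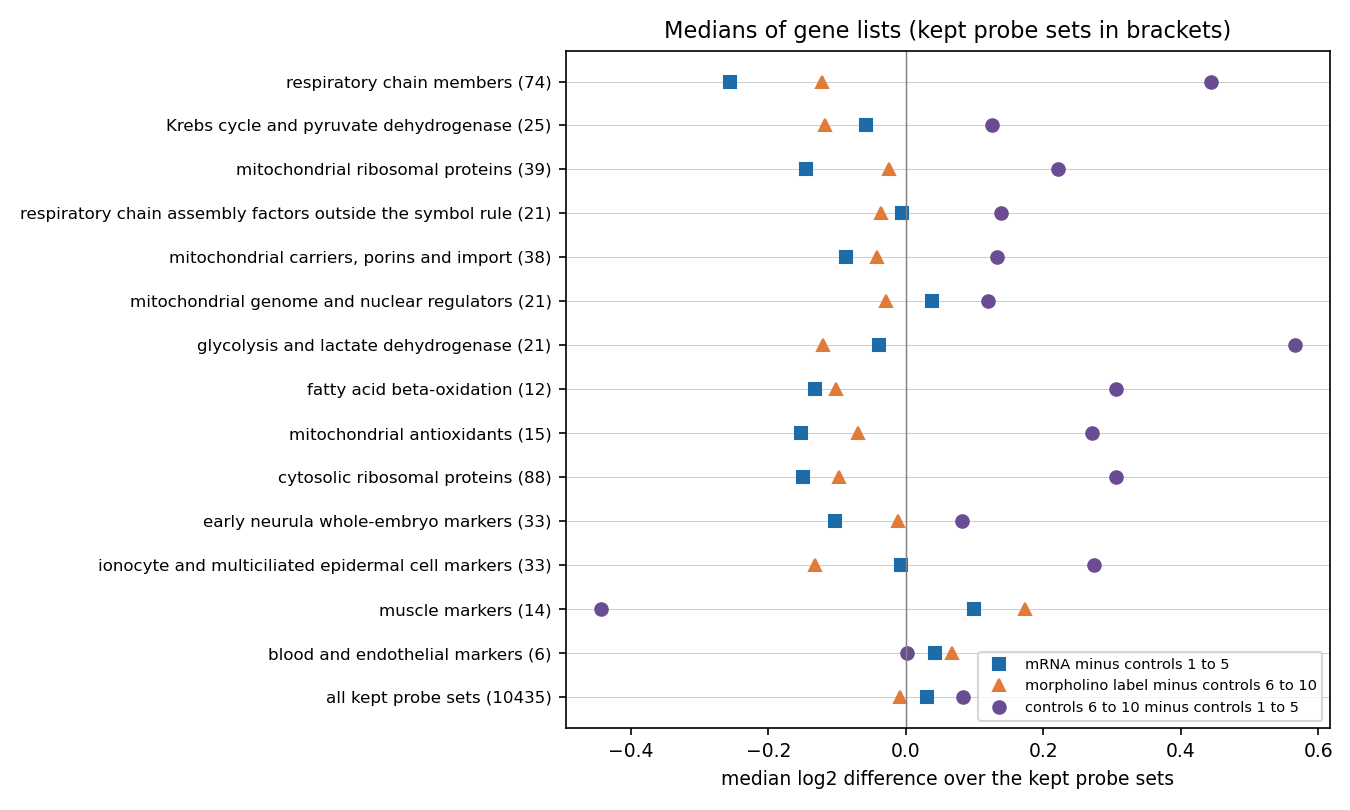
Median log2 difference over the kept probe sets of each gene list (number in brackets) in the mRNA comparison (squares), the morpholino label comparison (triangles) and the comparison of the 2 control sets (circles). The respiratory chain members had medians of -0.26, -0.12 and 0.44; the glycolysis list was at -0.04, -0.12 and 0.57 and muscle markers at 0.10, 0.17 and -0.44.

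Between the control sets the background for these lists is again 14.9% called higher and 8.53% lower. Against it the Krebs cycle list (16% higher), the regulators (14.3%) and the early neurula markers (12.1%) lay near or below, and the other lists of this paragraph at 20.5% to 41.7%. In numbers, 4 of 25 Krebs cycle probe sets were called higher and 0 lower with a median of 0.13, among them dld.S, the dehydrogenase that pyruvate and oxoglutarate dehydrogenase share, at 1.92 ± 0.38 (limma adjusted p = 0.00137). Mitochondrial ribosomal proteins had 8 of 39 higher and 0 lower with a median of 0.22, and beta-oxidation 5 of 12 and 0, including acat1.S at 1.67 ± 0.28 (0.000356). Of the assembly factors outside the symbol rule, 7 of 21 were called higher and 2 lower; uqcc2.S, which serves complex III, was at 1.75 ± 0.18 (1.69e-06) and bcs1l.L, which inserts the Rieske protein into complex III, at 1.23 ± 0.17 (4.75e-05). Antioxidants had 5 of 15 higher and 0 lower, with sod2.S, the manganese superoxide dismutase, at 0.98 ± 0.18 (0.000802). Glycolysis had 6 of 21 higher and 1 lower with a median of 0.57: gpi.S rose by 1.81 ± 0.44 (0.00601) and tpi1.S fell by 1.03 on the log2 scale (0.00137). Carriers, porins and import proteins had 10 of 38 higher and 3 lower, with phb2.L at 0.91 ± 0.18 (0.00105) and the phosphate carrier slc25a3.L at -1.05 ± 0.17 (0.000261). Regulators had 3 of 21 higher and 1 lower, early neurula markers 4 of 33 and 4, and cytosolic ribosomal proteins 25 of 88 and 0 with a median of 0.31.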

How the data were processed

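Each of 20 single-colour arrays has 1 deposited log2 value for each of 15611 probe sets. The authors used GCRMA, as the submitters' processing notes say; the sources used here give neither its version nor whether both sets of arrays went through 1 normalization. Arrays have no read depth, so precision depends on how many there are. Control probe sets (120) were dropped, and 10435 of 15491 gene probe sets were kept (log2 above 4 in at least 5 arrays). Symbols came from the platform annotation (9304 probe sets with 1 symbol, 195 with several, 5992 with none; 2 symbols were updated through RefSeq). Only probe sets with 1 symbol are named.

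Differences were tested with limma 3.58.1 (lmFit, eBayes; R 4.3.3), with a mean for each of 4 groups over 20 arrays and the Benjamini-Hochberg adjustment over all kept probe sets at a threshold of 0.05; ± is the SE of the fit. A bracketed p in the report is this adjusted p. Controls of the 2 sets were kept apart. Separate parents are not stated in the labels for any array, so the p-values reflect spread among arrays that may be technical. The fit was tested on simulated data with 200 changed probe sets.

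With group means removed, each mRNA array correlated with the control of its number at 0.226 to 0.634, over 0.1 in each of 5 pairs, so the numbers were taken to pair them. For arrays labelled morpholino the correlations were 0.0593 to 0.281 with controls of the same number and -0.185 to 0.132 with controls 6 to 10 in order, and they were not paired.

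The members, the gene lists, the tests and the alternatives were chosen with earlier results of these data known. Named by rule were, per comparison and complex, up to 3 called members per direction with the smallest adjusted p or, with none called, the 1 with the smallest p; copies called in opposite directions or with 1 copy below log2 4 in all arrays; and up to 2 called genes per list. Other members were named after their values were seen. Alternatives were other filters, rescaling, array weights, a robust prior variance, 1 probe set per gene, other control groups, the tracer grouping, arrays left out in turn and, added after seeing the data, the 3′ minus 5′ difference as a covariate. Promoters and sequences were not analysed here.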

Additional observations from a re-analysis of the deposited data

Results flagged for a closer look

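The tracer probe set read 14.46 in control 6, 14.35 in control 7, 13.84 in control 8 and 14.51 in control 9, against 3.04 to 3.32 in controls 1 to 5. Per the labels these arrays held uninjected embryos.

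In 92 groups of 5 arrays, 88 of the 22 named probe sets and 4 of the mean over the members, 5 held an array whose gap to the nearest other array was more than 0.71 of the group's range. Chance gives such a gap in about 1 group in 20. In mRNA 3, sdhb.S was low at 8.38 while the others were at 10.23 to 10.61, and cox7a2l.L was high at 6.30 while the others were at 5.46 to 5.48. In control 3, ndufs6.S was at 4.02 against 3.69 to 3.76. In mRNA 5, atp5mf.S was at 7.46 against 7.93 to 8.11. In control 6, cyc1.L was at 8.38 against 7.96 to 8.06.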

How the results depend on the processing

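For the counts of called members and their medians, 219 of 228 alternative values stayed near the main ones. Near meant a count within a fixed factor of the main count, or a median within the pooled SD of the array means. Many values could hardly move: counts of 0, and medians with an array outside the comparison left out. By this rule the mRNA median with the 3′ minus 5′ covariate counted as near, though it was smaller in size. Leaving out 1 array at a time moved the median from -0.326 to -0.222 for mRNA and from -0.181 to -0.0749 for the morpholino label. Between control sets it moved from 0.407 to 0.507, and the count of calls went from 18 without control 6 to 30 without morpholino 2. The other counts stayed at 0. For the fits with arrays left out and the blocked fit of 3 labels below, shares of all probe sets called are not given here. With the replicate block, mRNA still called 0 members with a median of -0.26 (-0.317 to -0.222 with numbers left out); the blocked fit of 3 labels over all 20 arrays, which crosses the 2 sets, gave 24 calls and a median of 0.369 for the morpholino label. With all 10 controls the medians were -0.49 for mRNA and 0.107 for the morpholino label. Both fits cross the 2 sets, so label and set are mixed in them. Grouping by tracer gave 1 call and a median of 0.0834 within the second set, and 46 calls and a median of 0.632 between tracer-high arrays of the sets. Without the 8 arrays whose tracer went against the label the control sets gave 1 call, in a fit where control 10 alone stood for its group and was assumed to vary like the others.

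Of named members, 26 values changed sign, none of them called in the main comparisons. For mRNA, ndufaf7.S was at -0.127 with array weights, -0.307 with all controls and -0.175 to 0.276 with arrays left out (-0.0707 without control 4, -0.0497, -0.0681 and -0.106 without mRNA 2, 3 and 5), and sdha.S at -0.183 with all controls. For the morpholino label, the block gave 0.130 for ndufaf7.S, 0.0696 for cox7a2l.L and 0.729 for atp5po.L. The tracer grouping gave 0.484 for ndufaf7.S, -0.363 for ndufs3.S, 0.193 for sdhb.S, 0.0310 for cyc1.L, 0.712 for cox7a2l.L and 0.0985 for atp5po.L. Without the 8 arrays ndufs3.S was at -0.00382 and cox7a2l.L at 0.698; with all controls atp5po.L was at 0.202. cycs.S was at -0.0756 with array weights and between -0.0554 and 0.107 with arrays left out (-0.0173, -0.0484 and -0.00459 without control 7, 8 and 10, -0.0152 without morpholino 5). The causes were not tested.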
